A study of Mus musculus with 12 samples.

Results

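The 31 genes described here encode the PIWI-interacting RNA (piRNA) pathway and the enzymes that write, maintain and oxidise DNA methylation. They were chosen by symbol and all 31 were found among the 54532 genes measured. RNA from newborn male mouse testis was sequenced in bulk in 12 libraries, with 3 libraries in each of 4 groups. Every animal carried Tg(Pou5f1-EGFP)2Mnn, which places GFP under the promoter of Pou5f1 (OCT4), active in germ cells, and no other allele is named. Dex germ and dex somatic libraries came from pups exposed to dexamethasone (dex), a synthetic glucocorticoid receptor agonist. The dam was injected at E17.5 and E18.5 and the pup on postnatal day 0, with 10 μg of dex per g at each injection. Saline germ and saline somatic libraries came from pups given saline on the same days. Testes taken at postnatal day 1 were sorted by GFP, into positive cells, called germ cells, and negative cells of all other kinds, called somatic cells. Per the study, each replicate pooled testes from at least 2 litters dosed separately.

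Germ cells of the newborn testis are prospermatogonia, which are arrested in the cell cycle and are rebuilding the DNA methylation that was erased earlier in the embryo. PIWI proteins bind piRNAs that match transposon transcripts. In the cytoplasm they cleave those transcripts within germ granules, where Tudor domain proteins act as scaffolds, and a nuclear PIWI protein guides DNA methylation to transposon promoters. Dnmt3a, Dnmt3b and their cofactor Dnmt3l serve new methylation, Dnmt1 with its recruiting partner Uhrf1 copies methylation after replication, and TET dioxygenases oxidise methylated cytosine.

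Library totals lay between 18459692 and 25178477 counts. The summed level of 5 germ cell markers (Dazl, Pou5f1, Dppa4, Nanos3 and Sall4) was 1866 to 2027 CPM (counts scaled by library size) in germ libraries and 1.76 to 4.33 CPM in somatic libraries. The 4 Sertoli cell markers (Amh, Sox9, Wt1 and Gata4) summed to 2519 to 2904 CPM in somatic libraries. They summed to 23.3 to 31.1 CPM in dex germ libraries and 39.1 to 42.6 CPM in saline germ libraries, and these groups did not overlap. Bulk RNA does not separate fewer cells of a kind from less RNA per cell.

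For each of 7 members, chosen as stated after the sequences, 1 promoter window is given first, with the short words searched for. RefSeq promoter windows of 300 bases (250 before to 50 after the start, GRCm38.p6) were found for 25 members, in 40 windows. No entry was found for Piwil2, Tdrd6, Rnf17, Pnldc1, Morc1 and Tex15. The E-box CACGTG, which reads the same on both strands, was present in 12 of the 40 windows (30.0%), compared with 7.15% of all 32851 windows. It lay in windows of 10 of the 25 members, Piwil1, Ddx4, Mov10l1, Mael, Tdrd1, Tdrd9, Pld6, Fkbp6, Dnmt3a and Dnmt3l. Some windows of the same gene overlap. The Tdrd1 windows with the word hold the same site, and the Fkbp6 windows hold the same sites, so these were counted more than once. The E2F-type word GCGGGAA was searched on both strands and was present in 3 member windows, of Ddx4, Tdrd5 and Uhrf1, and in 4.60% of all windows. The word CGCATGCG was present in 4 member windows and 1.87% of all windows. The full palindromic glucocorticoid response element, searched by its consensus, was in none of the 40 windows and in 3 of all 32851. Member windows held a median of 20 CpG dinucleotides, compared with 7 over all windows, and CACGTG itself contains 1 CpG, so these measures are not separate. In the sequences below, written 5′ to 3′ along the gene's strand, capitals mark CACGTG, and GCGGGAA or its reverse complement TTCCCGC.
Ddx4 (chr13:112652261-112652560, minus strand): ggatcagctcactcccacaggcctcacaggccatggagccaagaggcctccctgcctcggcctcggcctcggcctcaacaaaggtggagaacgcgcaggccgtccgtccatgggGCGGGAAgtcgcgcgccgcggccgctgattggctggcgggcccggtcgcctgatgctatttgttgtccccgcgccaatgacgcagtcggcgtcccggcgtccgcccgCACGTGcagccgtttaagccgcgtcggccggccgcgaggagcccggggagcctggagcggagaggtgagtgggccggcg
Mael (chr1:166238695-166238994, minus strand): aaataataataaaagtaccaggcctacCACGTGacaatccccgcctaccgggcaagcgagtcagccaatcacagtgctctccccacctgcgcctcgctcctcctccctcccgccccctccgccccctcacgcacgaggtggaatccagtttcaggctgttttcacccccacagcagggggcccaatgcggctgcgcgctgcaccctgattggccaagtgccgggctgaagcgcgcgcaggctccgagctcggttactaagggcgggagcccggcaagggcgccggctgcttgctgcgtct
Tdrd9 (chr12:111971309-111971608, plus strand): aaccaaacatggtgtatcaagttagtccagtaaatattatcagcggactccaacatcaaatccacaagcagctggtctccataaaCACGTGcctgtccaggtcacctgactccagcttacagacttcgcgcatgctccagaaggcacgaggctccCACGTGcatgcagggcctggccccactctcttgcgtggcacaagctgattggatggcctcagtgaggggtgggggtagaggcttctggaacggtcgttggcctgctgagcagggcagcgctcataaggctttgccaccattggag
Fkbp6 (chr5:135349995-135350294, minus strand): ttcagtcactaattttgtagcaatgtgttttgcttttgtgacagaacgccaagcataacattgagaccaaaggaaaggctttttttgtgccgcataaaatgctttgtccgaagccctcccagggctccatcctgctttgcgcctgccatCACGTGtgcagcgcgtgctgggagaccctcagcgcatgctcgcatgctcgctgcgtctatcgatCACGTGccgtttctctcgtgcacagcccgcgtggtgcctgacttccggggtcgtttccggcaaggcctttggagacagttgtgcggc
Uhrf1 (chr17:56303087-56303386, plus strand): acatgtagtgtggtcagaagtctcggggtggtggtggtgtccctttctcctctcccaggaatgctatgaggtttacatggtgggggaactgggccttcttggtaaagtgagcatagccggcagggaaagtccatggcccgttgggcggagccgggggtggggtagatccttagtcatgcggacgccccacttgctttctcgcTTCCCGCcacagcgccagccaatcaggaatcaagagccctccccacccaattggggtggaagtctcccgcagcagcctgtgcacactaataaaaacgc
Dnmt1 (chr9:20952574-20952873, minus strand): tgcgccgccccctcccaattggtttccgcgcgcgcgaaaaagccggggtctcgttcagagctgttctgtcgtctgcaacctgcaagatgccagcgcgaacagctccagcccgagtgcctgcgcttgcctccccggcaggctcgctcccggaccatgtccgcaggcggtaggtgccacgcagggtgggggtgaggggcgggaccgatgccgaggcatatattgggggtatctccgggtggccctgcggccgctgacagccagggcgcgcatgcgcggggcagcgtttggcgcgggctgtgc
Dnmt3b (chr2:153649199-153649498, plus strand): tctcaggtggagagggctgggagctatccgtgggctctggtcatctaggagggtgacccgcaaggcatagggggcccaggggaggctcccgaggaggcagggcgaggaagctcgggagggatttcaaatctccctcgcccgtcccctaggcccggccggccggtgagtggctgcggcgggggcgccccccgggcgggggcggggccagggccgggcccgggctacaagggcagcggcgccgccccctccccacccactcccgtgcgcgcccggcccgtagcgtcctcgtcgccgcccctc
Ddx4 was the only one of these 7 windows with both words. The Dnmt1 and Dnmt3b windows shown held neither word, and 33 and 30 CpG dinucleotides, and the Dnmt1 window held CGCATGCG. Other windows of these genes are not shown. For Dnmt1 they start at 20959839 (2 CpG) and 20952930 (12 CpG, with CGCATGCG), and hold neither word. For Uhrf1 the other starts at 56304063, with 33 CpG and CGCATGCG but neither word. For Fkbp6 it starts at 135349864, with 32 CpG and CACGTG. Ddx4, Mael, Tdrd9 and Fkbp6 are shown as examples of E-box members with abundant germ cell transcripts, so their E-boxes are not a result. Mov10l1 (93.2 FPKM in saline germ cells) and Tdrd1 (59.3), also E-box members and above Tdrd9 (53.9), are not shown. Uhrf1, Dnmt1 and Dnmt3b are shown as the members that fell with dex.

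Which members are germ cell transcripts was asked first in the saline libraries. Germ cells had the higher level of 27 members and somatic cells of 3 members, where a gene is called at a Benjamini-Hochberg adjusted p of at most 0.05 over all genes in the quasi-likelihood test of edgeR. Over all 18870 genes tested 76.5% were called, 39.8% toward germ cells and 36.7% toward somatic cells. The median log2 fold change of germ over somatic cells was 6.40 for the members and 0.07 for all genes tested. The 3 genes higher in somatic cells were the TET dioxygenases, and the gene called in neither direction was Dnmt3a. Called members had adjusted p-values from 1.7e-12 to 2.11e-05. In dex libraries 31 of 31 members were called, 28 with the higher level in germ cells and 3 in somatic cells, against 76.3% of 18778 genes (40.5% and 35.7%), with a median of 6.49 for the members and 0.12 for all genes.

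**Figure D1:**
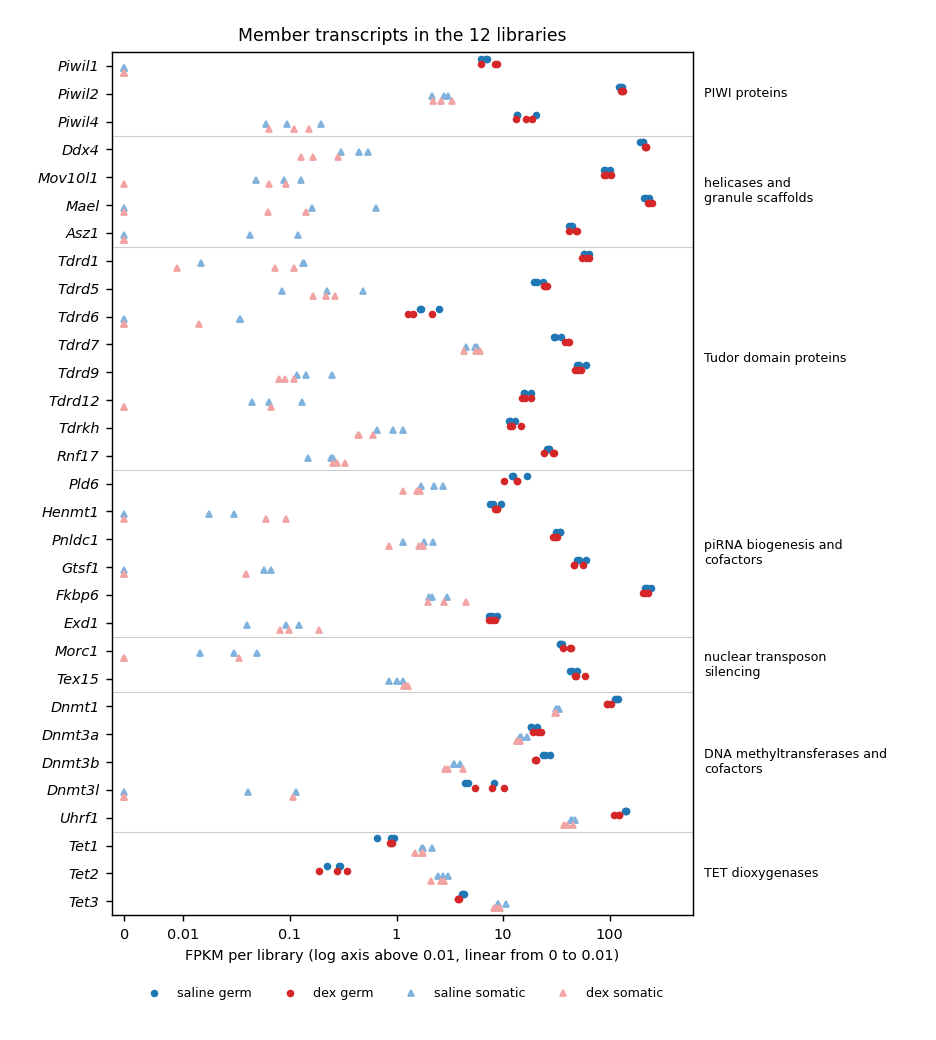
FPKM (a level scaled by gene length and library total) of the 31 members in each of the 12 libraries, grouped by role, on a log axis above 0.01 and linear from 0 to 0.01; circles are germ libraries and triangles somatic libraries. The piRNA pathway genes lie to the right in germ libraries, the Dnmt3a points of both populations lie close together, and Tet1, Tet2 and Tet3 lie to the right in somatic libraries.

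Among the PIWI proteins, Piwil2 (MILI), which acts in the cytoplasm and is already present in fetal germ cells, was the most abundant. Its FPKM was 123, 126 and 131 in saline germ libraries, 132, 130 and 128 in dex germ libraries, 2.76, 3.06 and 2.15 in saline somatic libraries and 2.63, 3.29 and 2.20 in dex somatic libraries. Piwil2 was thus high in all 6 germ libraries and low, but never absent, in all 6 somatic libraries. Its somatic level in CPM was 2.19% of the germ level with saline and 2.13% with dex. Piwil4 (MIWI2), the nuclear PIWI protein, had 15.8 ± 3.90 FPKM (SD, n = 3) in saline germ cells. Piwil1 (MIWI), known chiefly from later meiotic and haploid stages, had 6.67 ± 0.454 FPKM there. Piwil1 had 0 counts in each of the 6 somatic libraries and was at least 629-fold higher in saline germ cells and at least 665-fold higher in dex germ cells, against a floor of 3 counts over the somatic group, which covers counting error only.

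The helicases and granule scaffolds were the group with the highest summed FPKM in germ cells, 559 ± 8.98 in saline, and 0.841 ± 0.178 in saline somatic cells. Mael, a nuage protein of transposon silencing, had FPKM of 210, 220 and 232 in saline germ libraries and 233, 229 and 247 in dex germ libraries. In somatic libraries its raw counts were 0, 28 and 6 with saline and 2, 5 and 0 with dex. Mael in somatic cells therefore rested mostly on 1 saline library, and the groups overlapped. Ddx4 (VASA), the germ cell RNA helicase, had 202 ± 7.74 FPKM in saline germ cells and a log2 fold change over somatic cells of 8.76 ± 0.14 (SE). Mov10l1, the helicase that feeds transcripts into piRNA processing, was 9.95 ± 0.17 higher on the log2 scale, from 24 saline somatic counts. Asz1, a mitochondrial scaffold, was 9.50 ± 0.28 higher in saline, from 10 somatic counts. With dex Asz1 had 0 counts in all somatic libraries, so that it was at least 2530-fold higher in germ cells. The SE of Mov10l1 and Asz1 are derived from the test statistic and are smaller than counting error at so few somatic counts.

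All 8 Tudor domain genes were higher in germ cells. Tdrd1, which binds PIWI proteins in the granule, was the most abundant of them over the 12 libraries, with FPKM of 56.8, 57.6 and 63.5 in saline germ and 63.3, 55.5 and 59.4 in dex germ libraries. In somatic libraries its FPKM was 0.133, 0.0147 and 0.136 with saline and 0.109, 0.0722 and 0.00887 with dex. Tdrd9, a helicase of the nuclear branch, and Tdrd12, its relative, had log2 fold changes of 8.20 ± 0.18 and 7.50 ± 0.23. Tdrd5, Tdrd6 and Rnf17 were 6.20 ± 0.32, 6.22 ± 0.48 and 6.84 ± 0.15 higher on the log2 scale, although Tdrd6 reached only 1.95 ± 0.462 FPKM in saline germ cells. Tdrd7 and Tdrkh were the least restricted of the Tudor genes, with somatic levels of 16.9% and 7.98% of the saline germ level. The exons of Tdrkh share 36.7% of their bases with Oaz3 on the opposite strand, and Oaz3 had 223 counts over the 12 libraries against 10366 for Tdrkh. The strand setting of the counting is not stated, so how reads of the shared stretch were assigned cannot be told.

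The 6 biogenesis and cofactor genes were all higher in germ cells. Fkbp6, a co-chaperone of PIWI loading, was the most abundant member in saline germ cells, with FPKM of 213, 223 and 244 there and 204, 214 and 228 with dex. Its somatic FPKM was 2.17, 2.96 and 2.04 with saline and 4.44, 1.96 and 2.78 with dex, so that every germ library was above every somatic library. Gtsf1, a PIWI cofactor, had 4 counts over the 3 saline somatic libraries and a log2 fold change of 10.05 ± 0.27, an SE smaller than counting error. With dex it had 1 somatic count, a germ to somatic ratio of 4072 with an exact 95% counting interval from 731 to 160871. Henmt1, which methylates piRNA ends, had 3 counts in saline somatic cells and a ratio of 480 (164 to 2332). Pnldc1, the trimming enzyme of piRNA ends, Pld6, a mitochondrial nuclease, and Exd1, a piRNA cofactor, had log2 fold changes of 4.14 ± 0.19, 2.49 ± 0.22 and 6.40 ± 0.24. Pld6 was at 16.98% and Pnldc1 at 5.39% of the saline germ level in somatic cells.

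Morc1 and Tex15 act in the nucleus on transposon silencing and were both higher in germ cells, by 9.91 ± 0.18 and 5.36 ± 0.13 on the log2 scale. Tex15, the more abundant, had FPKM of 43.9, 49.3 and 42.0 in saline germ libraries and 58.1, 47.3 and 48.4 in dex germ libraries. In somatic libraries it had 1.16, 1.01 and 0.848 with saline and 1.28, 1.27 and 1.18 with dex. The Tex15 level in somatic cells was 2.32% of that in germ cells, while Morc1 was at 0.095%. Morc1 had 14 saline somatic counts, at which its SE is smaller than counting error.

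These low somatic levels were set beside those of the germ cell markers in the same libraries. In saline somatic cells Dazl stood at 0.116%, Sall4 at 0.117%, Dppa4 at 0.159%, Pou5f1 at 0.221% and Nanos3 at 3.36% of the germ level. Ddx4 (0.221%), Mov10l1 (0.097%), Mael (0.130%), Asz1 (0.129%), Tdrd1 (0.163%), Henmt1 (0.200%), Gtsf1 (0.081%) and Morc1 (0.095%) lay at or under 0.221%, as did the first 4 markers, and Piwil1 had 0 counts. Above them came Tdrd9 (0.324%), Tdrd12 (0.507%), Piwil4 (0.761%) and Rnf17 (0.841%). Piwil2, Tdrd5, Tdrd6, Tex15, Fkbp6, Exd1, Pnldc1, Tdrkh, Tdrd7 and Pld6 lay between 1.10% and 16.98%. How much of the somatic signal came from germ cells left after the sort was not tested.

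The DNA methylation genes were shared more evenly between the populations. Uhrf1, with the highest mean FPKM of this group over the 12 libraries, had 143, 138 and 143 FPKM in saline germ libraries and 43.9, 46.8 and 43.4 in saline somatic libraries, a log2 fold change of 1.54 ± 0.077. Dnmt1 was 1.72 ± 0.078 higher in germ cells and Dnmt3b 2.69 ± 0.10 higher, while Dnmt3l, which has no catalytic activity of its own, was 6.67 ± 0.52 higher with 10 counts in all saline somatic libraries. Dnmt3a was 0.19 ± 0.093 higher in saline germ cells (adjusted p = 0.0764) and 0.50 ± 0.082 higher in dex germ cells (adjusted p = 0.000142). In neither treatment did germ and somatic libraries overlap for Dnmt3a, and the change of the difference with dex was not called (0.30 ± 0.13, adjusted p = 0.316). The saline difference was called under 9 of 16 alternatives, all in the same direction, with adjusted p-values from 0.00305 to 0.312. Of the sequence words of 64 bases in Uhrf1 transcripts, 11.3% occur in another gene, and for Dnmt3b 7.57% occur in Dnmt3c, its recent copy, so that a part of their reads could be assigned either way.

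The TET dioxygenases showed the opposite order. Tet3, the most abundant, had FPKM of 4.23, 4.33 and 4.11 in saline germ, 3.84, 3.75 and 3.81 in dex germ, 8.93, 10.6 and 8.86 in saline somatic and 9.44, 8.25 and 8.78 in dex somatic libraries. Every somatic library was above every germ library. The log2 fold change of germ over somatic cells in saline was -1.29 ± 0.10 for Tet3, -1.30 ± 0.17 for Tet1 and -3.48 ± 0.17 for Tet2. Tet2 had 0.267 ± 0.0405 FPKM in saline germ cells and 2.74 ± 0.291 in saline somatic cells, and at Tet1 the values were 0.836 ± 0.154 and 1.88 ± 0.227. The GFP-negative libraries hold Sertoli, Leydig, stromal, endothelial and blood cells together, so these levels are averages over all of them.

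Whether dex changed these transcripts in germ cells was asked next. With dex, 3 of the 31 members were called, all 3 lower and all 3 among the methyltransferases and their cofactors: Dnmt1, its partner Uhrf1, and Dnmt3b. Over all 18550 genes tested 1.25% were called, 0.739% higher and 0.507% lower. No piRNA pathway gene and no TET gene was called. Of all 31 members 16 had log2 fold changes above 0 and 15 under 0, with a median of 0.0077, compared with -0.0027 over all genes. At an unadjusted p under 0.05 stood 6 members, against 14.7% of all genes.

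Dnmt1 (mm10 chr9:20907209-20959888, minus strand) had 686, 699 and 755 CPM in dex germ libraries and 886, 839 and 861 CPM in saline germ libraries. The highest dex library was below the lowest saline library. The level was 713 ± 36.8 CPM with dex and 862 ± 23.4 with saline (SD, n = 3). This was 0.821 times the saline level, or -0.28 ± 0.063 (SE) on the log2 scale, with an adjusted p of 0.0436.

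Uhrf1 (mm10 chr17:56303321-56323486, plus strand) had 463, 519 and 518 CPM in dex germ libraries and 613, 591 and 608 CPM in saline germ libraries. Again no dex library reached the saline range, and dex germ replicate 1 was the lowest. The log2 fold change was -0.28 ± 0.065, or 0.822 times (adjusted p = 0.0495).

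Dnmt3b (mm10 chr2:153649450-153687730, plus strand) had 103, 104 and 100 CPM in dex germ libraries and 141, 121 and 125 CPM in saline germ libraries. The dex libraries lay close together and under all saline libraries, of which replicate 1 was the highest. The log2 fold change was -0.35 ± 0.080, or 0.786 times (adjusted p = 0.0495). In the same libraries Dnmt3a was 0.12 ± 0.076 on the log2 scale and Dnmt3l 0.42 ± 0.24, neither called (adjusted p = 0.526 and 0.44). Dnmt3l varied widely, from 13.2 to 24.4 CPM in saline germ and from 16.1 to 30.1 CPM in dex germ libraries.

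These 3 calls stood close to the threshold. The direction was lower in all 16 alternatives for each gene, but Dnmt1 was called in 4 of them, Dnmt3b in 3 and Uhrf1 in 3, with adjusted p-values from 0.00516 to 0.29, from 0.00717 to 0.279 and from 0.00789 to 0.313. None of the 3 genes was called with the replicate number as a block, with library totals as the scaling, with all 12 libraries in 1 fit, on FPKM values, or without dex germ replicate 1, dex germ replicate 3, saline germ replicate 1 or saline germ replicate 2. Without dex germ replicate 2 Uhrf1 alone of these genes was called in edgeR, and without saline germ replicate 3 none of them was. The Sertoli marker sum moved with the treatment in these libraries, as given above, and its part in the result was not tested. It was 1.024% of its somatic level in dex germ and 1.47% in saline germ libraries. In saline the somatic levels of Dnmt1, Dnmt3b and Uhrf1 were 29.0%, 14.8% and 33.0% of the germ levels. What this means for their fall with dex was not tested. Macrophage and blood markers also did not overlap, at 0.334 to 1.14 CPM in dex germ and 1.43 to 2.401 CPM in saline germ libraries. The other somatic marker sums overlapped. Peritubular and stromal markers were at 101 to 103 CPM in dex germ and 90.4 to 123 CPM in saline germ libraries. In the same order, endothelial markers (Pecam1, Cdh5 and Kdr) were at 48.4 to 61.3 and 47.4 to 55.1 CPM, and Leydig markers at 4.25 to 8.13 and 7.70 to 10.1 CPM. Pecam1 averaged 30.6 CPM in dex germ and 24.5 in saline germ cells, above 9.29 and 15.5 in somatic cells, while Cdh5 and Kdr were lower in germ cells. The endothelial sum in germ libraries therefore does not measure endothelial cells alone.

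**Figure D2:**
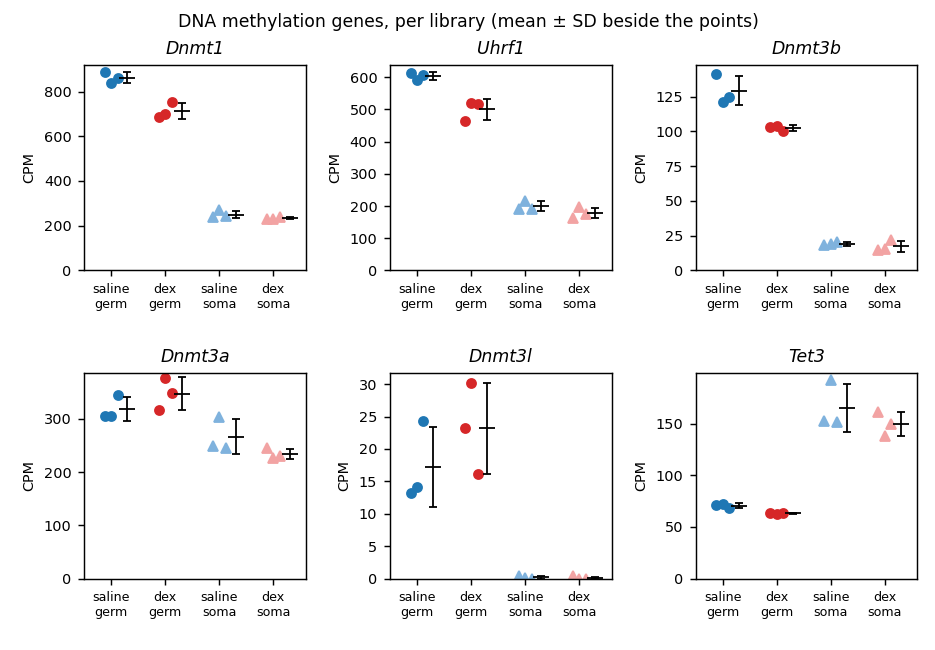
CPM of 6 DNA methylation genes in each library, with circles for germ and triangles for somatic (soma) libraries and the mean ± SD of 3 libraries beside the points. Dex germ points lie under the saline germ points for Dnmt1, Uhrf1, Dnmt3b and Tet3, and the points of Dnmt3a and Dnmt3l overlap.

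Among the piRNA pathway genes the smallest p-values in germ cells were at Tdrd7, Tdrd5 and Morc1. Tdrd7 had 161, 164 and 149 CPM with dex and 120, 123 and 138 with saline, a log2 fold change of 0.30 ± 0.077 that missed the threshold (adjusted p = 0.0737). It was called under 3 of 16 alternatives, which were DESeq2, no low-count filter and the fit without saline germ replicate 3. Tdrd5 was at 0.21 ± 0.077 (adjusted p = 0.199) and Morc1 at 0.20 ± 0.076 (adjusted p = 0.213), with no overlap between groups. Ddx4 and Tet3 also did not overlap, at 0.08 ± 0.063 and -0.18 ± 0.084. In all, 8 of 31 members (25.8%) had groups that did not overlap, against 20.1% of all genes tested.

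The other members did not pass the test, and their estimates lay between -0.29 (Tdrd6) and 0.20 (Piwil1). PIWI genes were at 0.20 ± 0.13 (Piwil1), 0.02 ± 0.060 (Piwil2) and 0.0077 ± 0.15 (Piwil4), and the scaffolds Mov10l1, Mael and Asz1 at -0.0062 ± 0.076, 0.08 ± 0.065 and 0.08 ± 0.081. The remaining Tudor genes were Tdrd1 at -0.02 ± 0.071, Tdrd6 at -0.29 ± 0.21, Tdrd9 at -0.12 ± 0.078, Tdrd12 at -0.03 ± 0.098, Tdrkh at 0.07 ± 0.10 and Rnf17 at 0.04 ± 0.086. Of the 6 biogenesis genes 5 were under 0, namely Pld6 (-0.16 ± 0.16), Pnldc1 (-0.13 ± 0.082), Gtsf1 (-0.14 ± 0.10), Fkbp6 (-0.09 ± 0.069) and Exd1 (-0.06 ± 0.10), while Henmt1 was at 0.03 ± 0.13. Tex15, Tet1 and Tet2 were at 0.16 ± 0.088, 0.07 ± 0.16 and -0.01 ± 0.26. None of these passed the test, which does not show that they were equal between treatments.

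**Figure D3:**
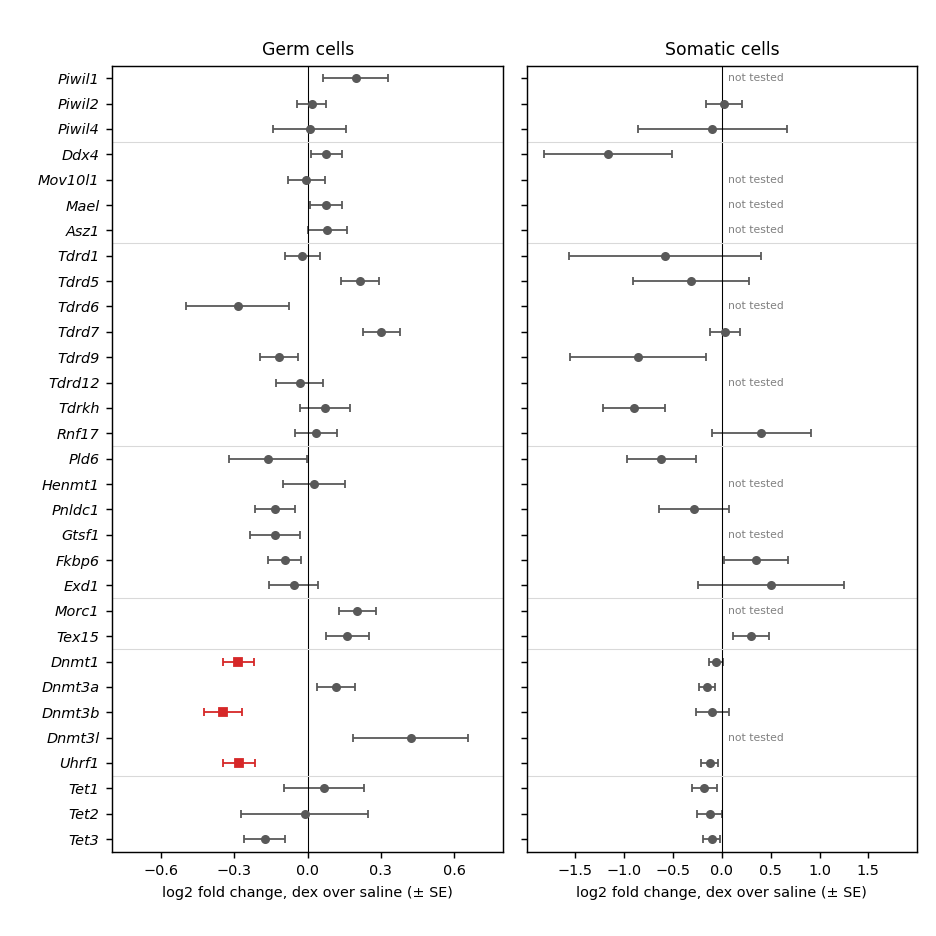
Log2 fold change of dex over saline with its standard error for the 31 members, in germ cells (left, axis from -0.8 to 0.8) and somatic cells (right, axis from -2 to 2), in the same order of roles. Red squares are the 3 called genes, Dnmt1, Dnmt3b and Uhrf1 in germ cells, and 10 members were too low to be tested in somatic cells.

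In somatic cells 21 of the 31 members passed the low-count filter and none was called, against 3.91% of the 16766 genes tested (2.74% higher and 1.17% lower with dex). DESeq2 and limma also called 0 of them, and edgeR with all 12 libraries in 1 fit called 2, Ddx4 and Tdrkh. At an unadjusted p under 0.05 stood 1 member, Tdrkh, against 16.1% of all genes. Of the members tested 6 were above 0 and 15 under 0, with a median of -0.13 against -0.0066 over all genes. Not tested were Piwil1, Mov10l1, Mael, Asz1, Tdrd6, Tdrd12, Henmt1, Gtsf1, Morc1 and Dnmt3l, whose somatic counts summed to at most 34 in either group of 3 libraries.

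Tdrkh, a mitochondrial Tudor protein that recruits PIWI proteins, had 2.80, 2.67 and 3.76 CPM in dex somatic libraries and 7.29, 4.37 and 5.91 in saline somatic libraries. The log2 fold change was -0.90 ± 0.32 (adjusted p = 0.154), and -0.92 with all 12 libraries in 1 fit (adjusted p = 0.0189). Ddx4 had 16, 10 and 8 counts with dex and 34, 23 and 29 with saline, at -1.17 ± 0.66 (adjusted p = 0.419), and -1.19 in the fit of 12 libraries (adjusted p = 0.0242). The fit of 12 libraries estimates the spread of each gene over germ and somatic libraries together, so its p-values do not measure the somatic spread alone. Each dex library was under each saline library at both genes. Tdrd9 (-0.86 ± 0.69) and Pld6 (-0.62 ± 0.35) did not overlap either, with dex lower, while Rnf17 (0.40 ± 0.50) and Tex15 (0.30 ± 0.18) did not overlap with dex higher. Including Dnmt1 and Dnmt3a, with dex lower, 8 of the 21 members tested (38.1%) had groups that did not overlap, against 21.5% of all genes tested.

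**Figure D4:**
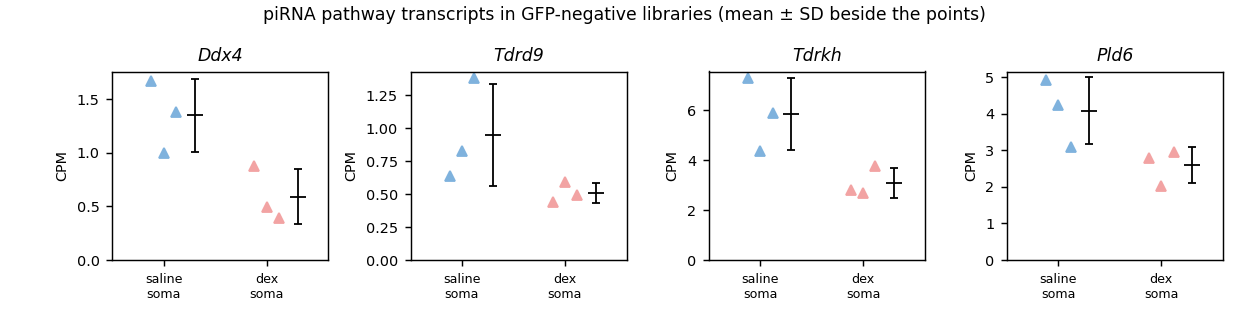
CPM of Ddx4, Tdrd9, Tdrkh and Pld6 in the GFP-negative (soma) libraries, 3 per treatment, with the mean ± SD beside the points. These 4 piRNA pathway genes had all dex points under all saline points, and none was called in the comparison of somatic libraries alone.

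The DNA methylation genes were well counted in somatic cells, except Dnmt3l, and none was called there. Dnmt1 was at -0.06 ± 0.073, Dnmt3a at -0.15 ± 0.081, Dnmt3b at -0.10 ± 0.17 and Uhrf1 at -0.13 ± 0.084 on the log2 scale. Tet1, Tet2 and Tet3 were at -0.18 ± 0.13, -0.13 ± 0.13 and -0.11 ± 0.089, and each was under 0. The other members tested were Piwil2 (0.02 ± 0.18), Piwil4 (-0.10 ± 0.76), Tdrd1 (-0.58 ± 0.98), Tdrd5 (-0.31 ± 0.60), Tdrd7 (0.03 ± 0.16), Pnldc1 (-0.28 ± 0.36), Fkbp6 (0.35 ± 0.33) and Exd1 (0.50 ± 0.75). Some marker sums of the somatic libraries moved with the treatment. The 4 peritubular and stromal markers summed to 7282 to 8384 CPM with dex and 4416 to 5814 with saline. The 4 macrophage and blood markers summed to 21.2 to 66.5 CPM with dex and 88.9 to 114 with saline. By group means, Col1a1 made up most of the first sum and Hbb-bs most of the second in both treatments. Whether the mix of cells changed was not tested, nor was its part in the member values.

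Whether the dex effect differed between the populations was tested over all 12 libraries. Ddx4 was the 1 member called of 31, against 0.827% of 20551 genes. Its dex effect was higher in germ than in somatic cells by 1.28 ± 0.28 on the log2 scale (adjusted p = 0.0462). This fit estimated the spread of each gene over germ and somatic libraries together. The SE of Ddx4 in somatic libraries alone was larger, as given above, so this p-value does not measure the somatic spread alone. In germ libraries Ddx4 had 654, 652 and 640 CPM with dex and 627, 626 and 580 with saline, and in somatic libraries 0.878, 0.495 and 0.396 with dex and 1.67, 0.996 and 1.38 with saline. The difference thus rested on the somatic side, with 34 counts against 86 over 3 libraries each. At these counts the SE of 0.28 is no larger than counting error alone. Of the 5 germ cell markers, Dazl had 41 somatic counts with dex and 91 with saline, Sall4 had 13 and 39, Pou5f1 had 10 and 13, and Dppa4 had 6 and 10. Nanos3 went the other way, with 67 and 52. None of the 5 was called for the difference, with estimates from -0.64 to 1.46, the highest above that of Ddx4. It was 1.03 ± 0.34 for Dazl (adjusted p = 0.177) and -0.64 ± 0.41 for Nanos3 (adjusted p = 0.543). Their summed level in somatic libraries was 1.76 to 2.97 CPM with dex and 2.36 to 4.33 with saline, ranges that overlap. The part of germ cells left in the somatic libraries was not tested.

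The call for Ddx4 held in 6 of 20 alternatives and the direction in all 20, with adjusted p-values from 0.000728 to 0.246. It was lost with the replicate number as a block (1.28 ± 0.29, adjusted p = 0.0681) and with the 3 limma fits (adjusted p from 0.169 to 0.246). It was also lost without any single germ library, without dex somatic replicate 2 or 3, and without saline somatic replicate 1 or 3. Next were Tdrkh at 0.99 ± 0.25 (adjusted p = 0.0721) and Asz1, which had 0 somatic counts with dex and 10 with saline (adjusted p = 0.158). For Dnmt1, Dnmt3b and Uhrf1 the differences were -0.18 ± 0.099, -0.21 ± 0.17 and -0.12 ± 0.11 (adjusted p = 0.456, 0.666 and 0.729), so a fall particular to germ cells was not shown for them.

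Other genes of the same pathways were counted from lists that hold none of the 31. Of 13 other piRNA pathway genes 12 were tested in germ cells and 11 in somatic cells, and 0 were called with dex in either (medians -0.04 and -0.04). Of 22 other genes of DNA methylation and silencing 22 and 21 were tested, and again 0 were called (medians 0.0013 and -0.05). Over all genes 1.25% were called in germ cells and 3.91% in somatic cells. At an unadjusted p under 0.05 stood 2 and 1 genes of the first list and 3 and 3 of the second, against 14.7% and 16.1% of all genes. limma also called 0 in these comparisons, and DESeq2 called 0, except for 1 gene of the second list in germ cells. In saline germ against somatic cells 39.8% of all genes were called higher and 36.7% lower. Of the piRNA list 7 of 12 genes were called higher, among them Stk31 (8.18 ± 0.25), and 3 lower. Nanos2, a translational regulator of male germ cells, had 52 to 71 counts in each saline germ library and 0 in each saline somatic library, so no fitted fold is given. Ago2, the small RNA slicer of all tissues, and Mybl1, a transcription factor, were the lowest, at -2.15 ± 0.094 and -1.72 ± 0.18. Of the second list 11 of 21 were called higher and 6 lower, beside the same shares of all genes. Kdm1b, a histone demethylase, was at 3.70 ± 0.11 and Hells, a chromatin remodeller, at 2.92 ± 0.11. Zfp57, an imprint protector, and Dnmt3c were the lowest, at -2.64 ± 0.18 and -2.22 ± 0.35.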

How the data were processed

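Gene counts and FPKM values of 12 libraries were used as deposited. Per the study and the submitters' processing notes, the authors sequenced paired ends of poly-A RNA, aligned the reads to mm10 with HISAT2 2.0.5 and obtained counts per gene with featureCounts 1.5.0-p3. The authors derived the deposited FPKM from these counts, each gene's length and the library total. The strand setting and the annotation release are not given in the sources used here. The authors' own DESeq2 comparison columns (log2 fold change, p and adjusted p) were not used.

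Each comparison was fitted on all genes with the quasi-likelihood test of edgeR 4.0.16 (R 4.3.3), TMM scaling and filterByExpr at a minimum count of 10, using the libraries of the groups compared. p-values were adjusted by Benjamini-Hochberg over all genes tested, with a threshold of 0.05. CPM were scaled by TMM. The difference between the dex effects was a contrast over 12 libraries, with the spread of each gene estimated over germ and somatic libraries together. DESeq2 1.42.0, limma 3.58.1 on log2(FPKM + 0.1) or log2(FPKM + 1), other filters and scalings, a replicate block and leaving out each library were alternatives. The steps were tested on simulated data. Replicates were pools from at least 2 litters, so p-values measure the spread between pools. Intervals and floors cover counting error only.

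Values per library are given for called members and the most abundant member of each role, and estimates for all others tested. The members, lists and promoter words were chosen with earlier results of these data known. Same-numbered saline germ and somatic libraries deviated together (r = 0.112, 0.193 and 0.141 over 10072 genes). The main test of these groups did not use this pairing. The replicate block, an alternative, called 30 members there. Promoters came from RefSeq tables of GRCm38.p6, the build of mm10.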

Additional observations from a re-analysis of the deposited data

Results flagged for a closer look

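The dex effect on Ddx4 differed between germ and somatic cells by 1.28 on the log2 scale (SE 0.28, adjusted p = 0.0462 with the quasi-likelihood test of edgeR), by a test of the difference itself. The estimate was 0.08 ± 0.063 in germ cells (adjusted p = 0.628) and -1.17 ± 0.66 in somatic cells (adjusted p = 0.419), and neither was called. The somatic value rested on 34 counts with dex and 86 with saline. At these counts the SE of 0.28 for the difference is no larger than counting error alone. The test of the difference estimated the spread over all 12 libraries together, so its p-value does not measure the somatic spread alone. The difference was called in 6 of 20 alternatives, with adjusted p-values up to 0.246, and was lost with the replicate block (adjusted p = 0.0681), with the 3 limma fits and in 10 of the 12 fits that left out 1 library.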

How the results depend on the processing

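The 3 calls of members in germ cells with dex became 4, with Tdrd7 added, with DESeq2 and without a filter. They became 2 with at least 10 counts in every library and 1 with RLE size factors. With library totals, each of the 3 limma fits, 12 libraries in 1 fit or the replicate block, 0 members were called. Leaving out 1 library gave 0 to 1. The 0 somatic calls became 2 with 12 libraries in 1 fit. With at least 10 counts in every library, which tests fewer genes, the germ against somatic calls were 18 in saline and 17 in dex, and leaving out 1 library gave 30 to 31 in saline. The 1 call for the difference became 4 without a filter, 3 with DESeq2, and 0 with the strict filter (Ddx4 was not tested), limma or the replicate block, and 0 to 2 leaving out 1 library. With the replicate block, the other counts were 0 (somatic), 30 (saline) and 31 (dex). Same-numbered dex and saline germ libraries did not deviate together as a set (r = 0.177, -0.273 and -0.144). Differently numbered ones ranged from -0.299 (dex germ 1 with saline germ 3) to 0.416 (dex germ 2 with saline germ 3). So the germ libraries shared structure that does not follow the replicate number. Same-numbered somatic libraries did not deviate together (-0.00638, -0.0119 and -0.0101), nor did dex germ and somatic ones (-0.0266, -0.0544 and 0.0136). Where not stated, the cause was not tested.

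Over all genes, the 231 germ calls with dex were 767 without a filter, 675 with DESeq2, 0 with limma, 142 with 12 libraries, 65 with the block and 49 to 265 leaving out 1 library. The 655 somatic calls were 1061 without a filter, 196, 195 and 112 with limma and 354 to 547 leaving out 1 library. The 170 calls of the difference were 706 without a filter, 620 with DESeq2, 262 with the strict filter, 68, 82 and 53 with limma, 104 with the block and 79 to 172 leaving out 1 library. With library totals the share of calls that were higher went from 70.1% to 53.5% in somatic cells, from 50% to 67.0% for the difference and from 59.3% to 69.3% in germ cells. The median of all genes went from 0.07 to 0.21 in saline and from 0.12 to 0.30 in dex germ against somatic cells.

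The sign turned only for members that were not called. In germ cells with dex, Mov10l1 was 0.017 with library totals and each limma fit and 0.00074 with 12 libraries. Tdrd1 was 0.00021 with library totals and 0.0016 with each limma fit, and Tet2 was 0.012 with library totals and 0.0012 with limma on log2(FPKM + 1). In somatic cells with dex, Piwil2 was -0.040 and Tdrd7 -0.026 with library totals, and Piwil2 was -0.012 with 12 libraries. Leaving out 1 library, germ values ranged from -0.12 to 0.22 (Piwil4), -0.024 to 0.13 (Rnf17), -0.074 to 0.055 (Mov10l1), -0.072 to 0.026 (Tdrd1), -0.12 to 0.033 (Tdrd12), -0.044 to 0.14 (Tdrkh), -0.22 to 0.19 (Tet2), -0.042 to 0.12 (Henmt1), -0.075 to 0.17 (Tet1), -0.25 to 0.0056 (Pld6) and -0.11 to 0.0020 (Exd1). Somatic values ranged from -0.078 to 0.17 (Tdrd7), -0.013 to 0.60 (Fkbp6), -0.29 to 0.0060 (Dnmt3b), -0.13 to 0.16 (Piwil2), -0.43 to 0.50 (Piwil4) and -0.73 to 0.47 (Tdrd5).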
